A study of Arabidopsis thaliana with 5 samples.

Results

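The genes described here encode enzymes and proteins that build or loosen the plant cell wall, 42 genes of the 13356 that could be named from a probe set assigned to a single gene. They were chosen by gene symbol: those beginning with XTH, PME, EXP, EXLA, EXLB, CESA, CSL, IRX, GAUT, GATL, FLA, AGP or LAC, plus GUT2. A further 3 genes with such symbols are not analysed here. The members comprised 8 XTH genes of xyloglucan remodelling and 18 expansin and expansin-like genes, grouped here as wall loosening. There were also 10 genes of hemicellulose synthesis, 1 GAUT gene of pectin synthesis, 3 pectin methylesterase genes and 1 laccase gene. The remaining member, PMEAMT, entered through its letters alone: it encodes a phosphoethanolamine N-methyltransferase of phospholipid synthesis and is not a wall enzyme, so 41 members are wall genes by name. The number of members with a CESA symbol (cellulose synthase) was 0, and so was the number with an FLA or AGP symbol (wall glycoproteins). Cellulose synthesis is therefore not covered, and lignin is covered by a single gene.

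RNA was measured on 5 Affymetrix arrays hybridised with cRNA from the secondary meristem of Arabidopsis thaliana, 3 arrays of the ecotype Columbia and 2 of Landsberg erecta. All plants in both groups had been cut at bolting to mimic feeding by a mammal and were sampled a day later, and uncut plants were not analysed here. The ecotypes were picked for the study because they differ in how they compensate for such damage. Labels call the arrays biological replicates and do not say how many plants went into each, so p-values measure the spread between these arrays. The gene annotation used here did not list 8794 of the 22810 probe sets, so a gene without a named probe set can still be on the array. Of the 16 symbols listed as markers of shoot and axillary meristems, 2 were named by a probe set, CLV3 and LAS. Both lay at the lowest value of the table, 2.15, on all 5 arrays. RCA, a marker of green tissue that encodes Rubisco activase, had log2 values of 14.56, 14.60 and 14.50 in Columbia and 14.37 and 14.40 in Landsberg erecta. The labelled meristem was thus not visible in the meristem markers at hand.

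The growing plant cell wall is a network of cellulose fibres tethered by hemicelluloses, chiefly xyloglucan in the primary wall, within a gel of pectin. Growth requires that this network yields: expansins loosen the contacts between cellulose and hemicellulose, XTH enzymes cut and rejoin xyloglucan chains, and pectin methylesterases strip methyl groups from pectin and so alter its stiffness. Cells that stop growing and strengthen, such as xylem and fibre cells of the stem, lay down a secondary wall of cellulose, xylan and lignin. A shoot regrowing after the loss of its apex needs both processes.

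The members divided into genes without measurable variation and genes that varied. A member was counted as varying when its highest and lowest log2 value lay at least 0.001 apart. By this measure 29 members varied and 13 (31%) held a single value on all arrays, against 28.6% of all 22746 probe sets. Of the 13, 9 sat at the table's lowest value of 2.15, namely XTH20, XTH21, XTH26, XTH29, EXPA18, EXPA21, EXPA24, EXPB5 and LAC16. The other 4 were EXPB2 at 2.16, EXLA3 at 2.17, EXPA9 at 2.47 and EXPA16 at 2.57. Values this close to the minimum carry no order and do not show whether a gene was off.

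No member differed between clipped Columbia and clipped Landsberg erecta by the adjusted test. In the limma fit over all probe sets with Benjamini-Hochberg adjustment, 0 members were called higher in Columbia (0% of all probe sets) and 0 lower (0% of all probe sets), and every member had a limma adjusted p of 1. At an unadjusted p under 0.05, limma also gave 0 members in either direction, against 1.17% of all probe sets higher and 0.62% lower in Columbia. The smallest unadjusted limma p of a member was 0.0941, that of PMEAMT. Among the 29 members that varied, 17 had a higher and 12 a lower mean in Columbia. For all probe sets that varied, the counts were 8628 and 7606. The median difference of the 29 members was 0.03 on the log2 scale, against 0.01 for all probe sets that varied. The differences of the members ran from -0.87 to 0.80.

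Separation of the ecotypes without a test gave few genes. Values of Columbia lay wholly above those of Landsberg erecta for 2 of the 29 members (6.9%, against 5.36% of all probe sets that varied), CSLC04 and PMEAMT, and wholly below for 0 (against 4.03%). CSLC04 had 8.88, 8.87 and 9.25 in Columbia, against 8.85 and 8.85 in Landsberg erecta, so that its separation rested on a gap far smaller than the spread among the Columbia arrays. PMEAMT had 10.06, 10.16 and 10.26 in Columbia and 9.86 and 10.03 in Landsberg erecta. These counts grow when any array is left out, because fewer arrays can overlap. Without Columbia replicate 1, 2 or 3 the members wholly higher in Columbia numbered 6, 4 and 3, and those wholly lower 2, 1 and 3. Without Landsberg erecta replicate 1 they numbered 4 and 7, and without replicate 2 they numbered 10 and 1. The member counts are of 29. Over all probe sets that varied, leaving out Columbia replicate 1, 2 or 3 gave 9.67%, 9.73% and 10.2% higher. The shares lower were 8.81%, 8.08% and 7.86%. Leaving out Landsberg erecta replicate 1 gave 23% higher and 23.3% lower, and leaving out replicate 2 gave 19.8% and 20.7%.

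For 19 of the 29 members (65.5%) the 95% interval of the difference lay within a 2-fold change in either direction, against 85.6% of all probe sets that varied. The 19 include EXPA7 and XTH18, which lay at the table's lowest value on most arrays, so their narrow intervals do not bear on a 2-fold difference. Others of the 19, such as CSLA01, CSLC12, CSLD2 and EXPA20, held an identical value on several arrays above that minimum. Their narrow intervals may not reflect the precision of the measurement. For the other 10 members the interval did not exclude a 2-fold difference between the ecotypes.

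**Figure D1:**
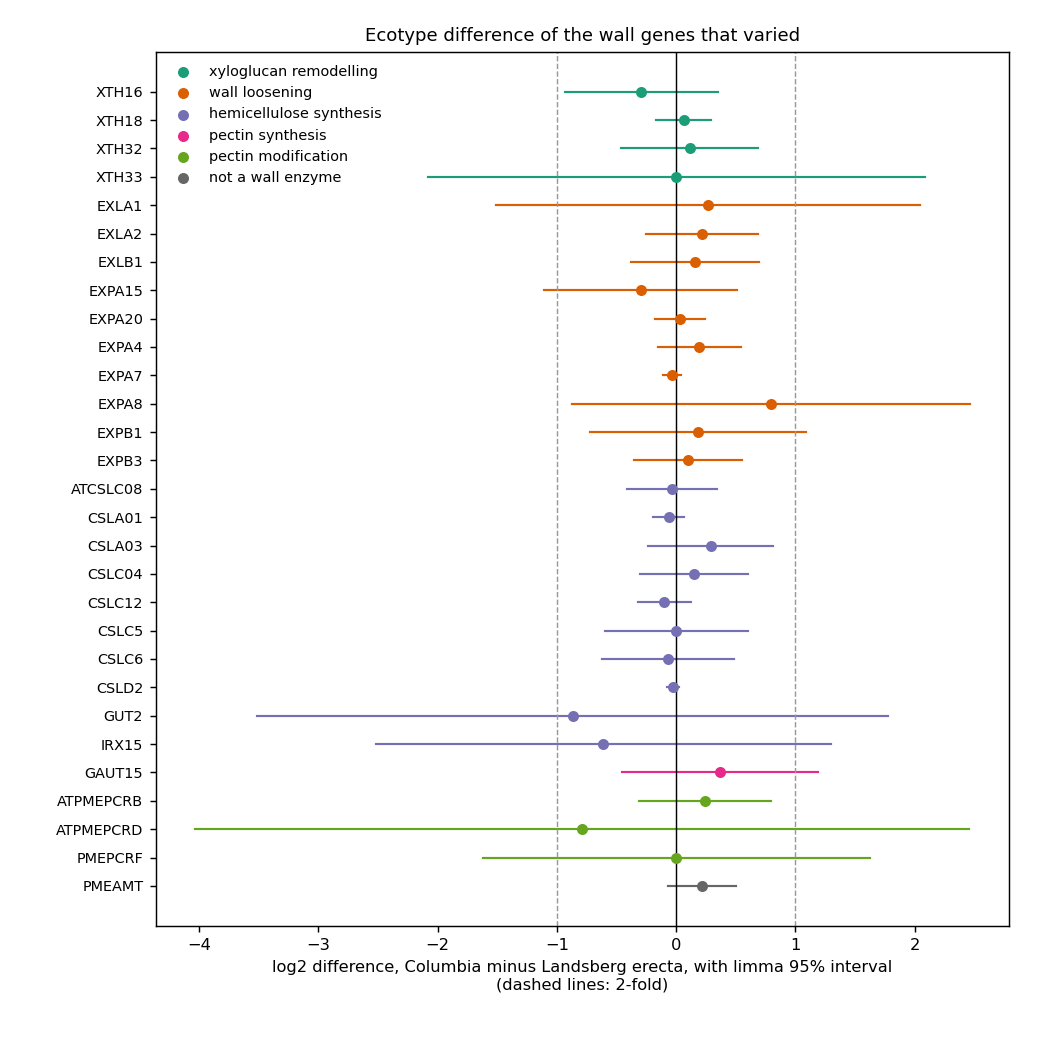
Difference between the ecotypes for the 29 wall-symbol genes that varied, as Columbia minus Landsberg erecta on the log2 scale (x axis), 1 gene per row, coloured by wall polymer. Points are limma estimates from 3 Columbia and 2 Landsberg erecta arrays and lines their 95% intervals; every interval crosses 0, and the widest, for ATPMEPCRD, runs from -4.04 to 2.46.

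The larger differences lay between arrays of Columbia. A range of at least 2-fold (1 on the log2 scale) over the 5 arrays was found for 7 of the 29 members (24.1%), against 7.27% of all probe sets that varied, and with single arrays left out this count stayed between 6 and 7. The 7 were ATPMEPCRD, GUT2, EXPA8, XTH33, IRX15, EXLA1 and PMEPCRF. Of these, ATPMEPCRD, XTH33 and IRX15 had means below the 50th percentile of all probe sets. Without probe sets below it, 4 of 20 varying members had a 2-fold range. The share over all probe sets was not taken after this filter, so that count has no background beside it. Within Columbia alone the same 7 of the 29 members (24.1%) reached 2-fold, against 5.34% of all probe sets that varied. Between the Landsberg erecta arrays 0 members did so, against 0.616%. A range over 3 arrays tends to exceed one over 2 arrays, so these shares are compared with the background and not with each other. For 6 of the 7, all but EXPA8, both Landsberg erecta values lay inside the range of the Columbia values, a position more likely where that range is wide. Over all 29 members that was so for 12 (41.4%), against 35.3% of all probe sets that varied. The Columbia range exceeded the ecotype difference for 25 members (86.2%), against 73.1%.

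**Figure D2:**
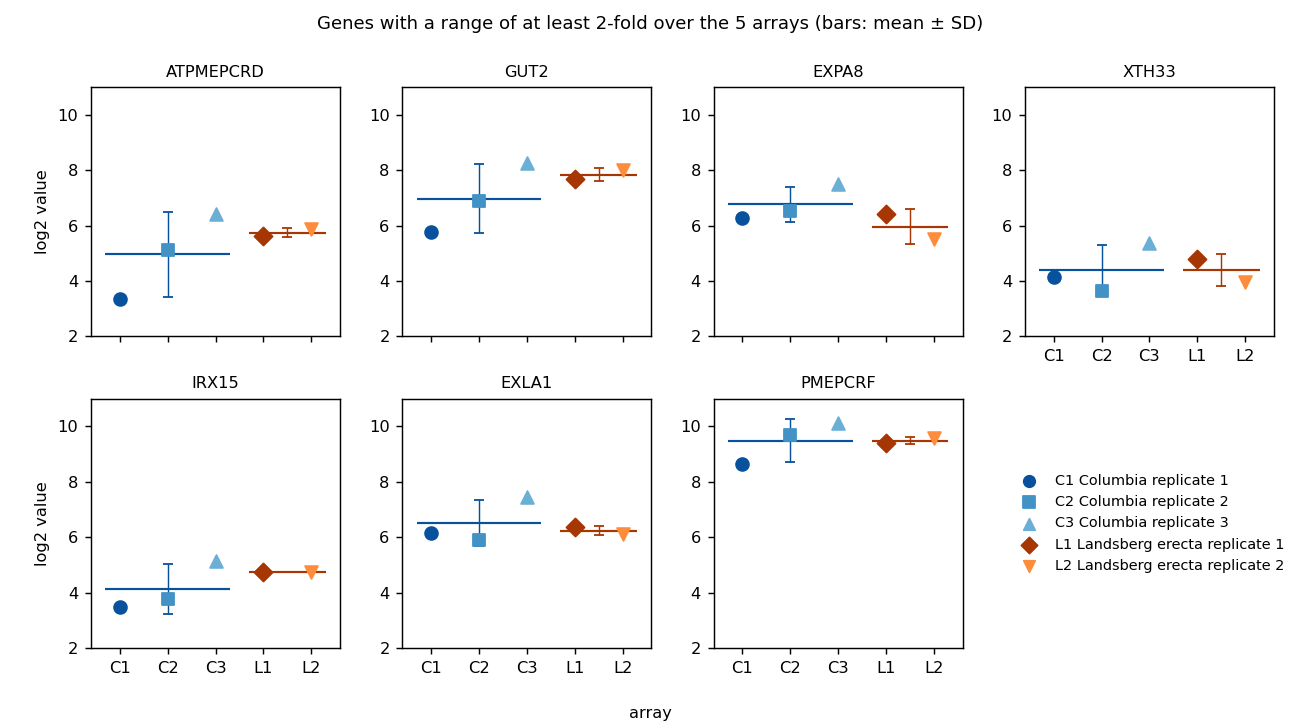
Log2 values (y axis) of the 7 members with a range of at least 2-fold, on the 3 Columbia arrays (C1 to C3) and the 2 Landsberg erecta arrays (L1, L2) along the x axis. Horizontal lines are ecotype means and error bars 1 SD; Columbia replicate 3 is the highest array in all 7 panels, and for GUT2 the Columbia arrays run from 5.79 to 8.27 while the Landsberg erecta arrays stand at 7.68 and 8.01.

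Columbia replicate 3 gave the highest value of 15 of the 29 members (51.7%), against 21.2% of all probe sets that varied. Columbia replicate 1 gave the highest value of 0 members, against 17.8%, and the lowest value of 7 (24.1%), against 14%. Landsberg erecta replicate 1 gave the lowest value of 9 members (31%), against 16.3%. Members of a family were chosen together and share these arrays, so the shares describe the arrays and are not a test. The following paragraphs take the members by polymer.

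Xylan synthesis belonged to the members that varied most. GUT2 (AT1G27440, also known as IRX10) encodes a glycosyltransferase that builds the xylan backbone of secondary walls, and IRX15 (AT3G50220) encodes a protein needed for normal xylan. GUT2 had log2 values of 5.79, 6.88 and 8.27 in Columbia and 7.68 and 8.01 in Landsberg erecta. Its Columbia arrays thus spanned a 5.58-fold range that enclosed both Landsberg erecta arrays. Means were 6.98 ± 1.24 in Columbia (SD, n = 3) and 7.85 ± 0.24 in Landsberg erecta (SD, n = 2). Their difference was -0.87 (95% interval from -3.52 to 1.78), and it was -0.27 without Columbia replicate 1 and -1.51 without Columbia replicate 3. IRX15 had 3.46, 3.76 and 5.15 in Columbia, against 4.73 and 4.73 in Landsberg erecta. Its Columbia range was 3.23-fold, with replicates 1 and 2 below and replicate 3 above Landsberg erecta. Its ecotype difference was -0.61, and the interval reached from -2.52 to 1.30. Without Columbia replicate 1, 2 or 3 it was -0.28, -0.43 or -1.12.

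These were the only of the 25 symbols on the secondary wall list with a named probe set. Genes of the regulators of secondary walls, of xylem and of nucleotide sugars were looked for, and 0 were named by the table used here, so no xylem marker can be set beside GUT2 and IRX15. In whole meristem tissue, fewer cells that make secondary walls and less RNA per such cell cannot be told apart.

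Pectin genes held the widest range of any member, in a gene whose mean lay below the 50th percentile of all probe sets. ATPMEPCRD (AT2G43050), a pectin methylesterase gene, had 3.36, 5.14 and 6.41 in Columbia and 5.64 and 5.87 in Landsberg erecta. Its Columbia arrays spanned an 8.3-fold range around the Landsberg erecta arrays, with means of 4.97 ± 1.53 in Columbia (SD, n = 3) and 5.76 ± 0.16 in Landsberg erecta (SD, n = 2), and the difference of -0.79 (95% interval from -4.04 to 2.46) was 0.02 without Columbia replicate 1 and -1.51 without Columbia replicate 3. PMEPCRF (AT5G53370), another methylesterase gene, had 8.65, 9.69 and 10.14 in Columbia and 9.40 and 9.58 in Landsberg erecta. The order of the 3 Columbia arrays was the same as for GUT2, IRX15 and ATPMEPCRD, with a 2.81-fold range, while the means were 9.49 ± 0.76 in Columbia (SD, n = 3) and 9.49 ± 0.13 in Landsberg erecta (SD, n = 2).

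The third methylesterase gene did not share that order. ATPMEPCRB (AT4G02330, also PME41) had 8.35, 8.43 and 8.09 in Columbia and 7.85 and 8.24 in Landsberg erecta, with Columbia replicate 3 the lowest of its ecotype. GAUT15 (AT3G58790), of the galacturonosyltransferase family that synthesises pectin, had 7.24, 7.16 and 7.76 in Columbia and 6.80 and 7.24 in Landsberg erecta. Landsberg erecta replicate 1 was the lowest array for both of these genes. The difference of GAUT15 was 0.37 with a 95% interval from -0.46 to 1.19. It was 0.15 or 0.58 without Landsberg erecta replicate 1 or 2, and 0.18 without Columbia replicate 3.

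In all, 5 members (17.2%) had their lowest value on Columbia replicate 1 and their highest on Columbia replicate 3, against 4.95% of all probe sets that varied. They were GUT2, IRX15, ATPMEPCRD, PMEPCRF and XTH32. With a range of at least 2-fold as well, 4 members remained (13.8%, against 1.36%), all but XTH32. This combination of arrays was not planned and was taken up with the values of these members known. Its shares therefore describe the members and are not a test. The range of XTH32 was 1.42-fold.

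**Figure D3:**
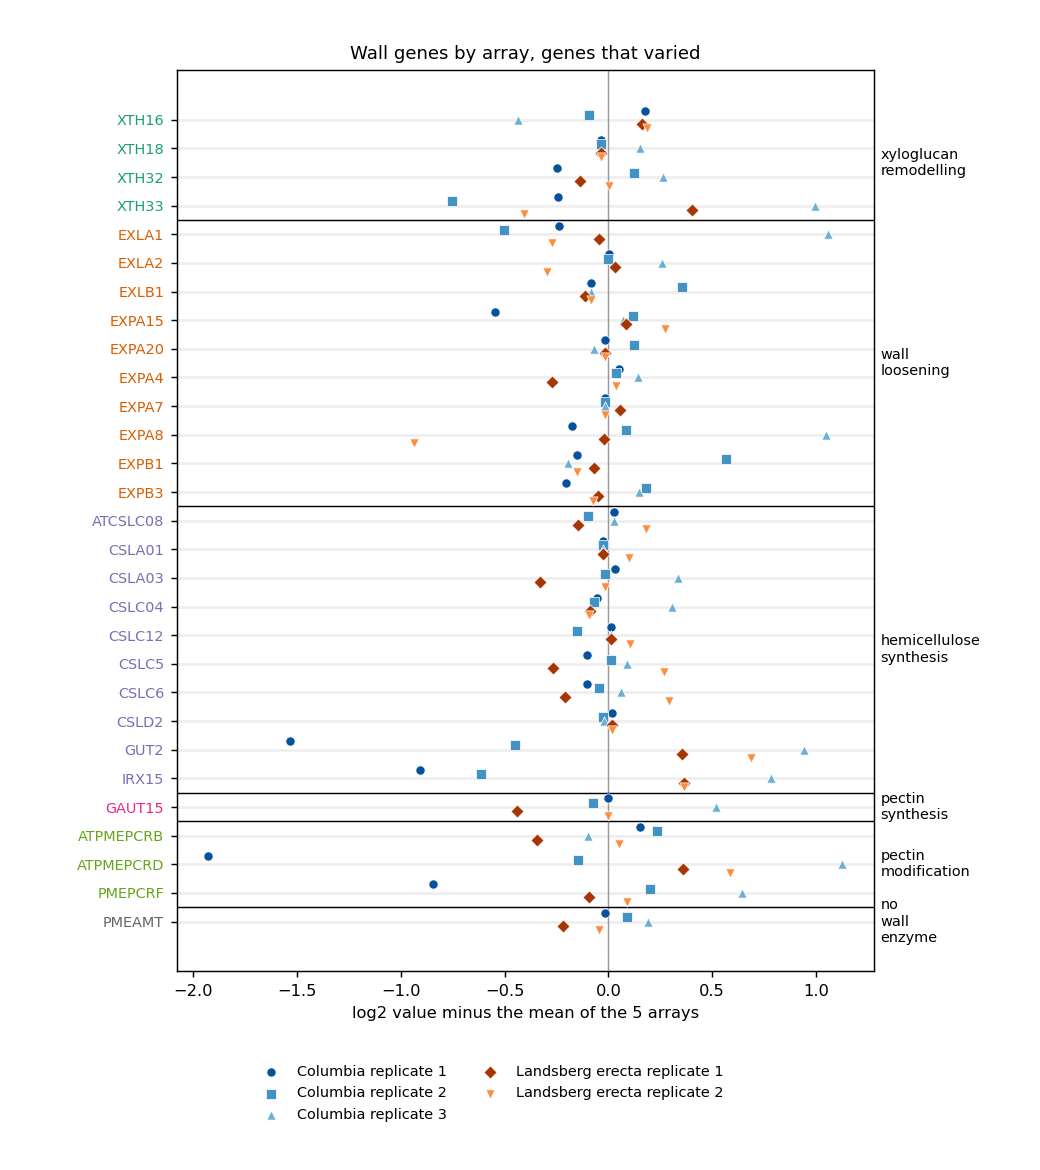
Log2 value of each member that varied, minus its mean over the 5 arrays (x axis), 1 gene per row and 1 symbol per array, grouped by wall polymer. Columbia replicate 1 lies farthest left and Columbia replicate 3 farthest right for GUT2, IRX15, ATPMEPCRD and PMEPCRF, while for CSLC5, CSLC6 and ATCSLC08 the extremes are the Landsberg erecta arrays.

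Most genes of xyloglucan synthesis had other arrays at the extremes. CSLC proteins are glucan synthases that make the backbone of xyloglucan, and 5 of their genes were measured. For 4 of the 5, ATCSLC08, CSLC5, CSLC6 and CSLC12, Landsberg erecta replicate 2 was the highest array, and for the first 3 of these Landsberg erecta replicate 1 was the lowest. Over all probe sets that varied, replicate 2 was highest for 21% and replicate 1 lowest for 16.3%. The ranges of CSLC5 and CSLC6, 0.53 and 0.50, were above the median of 0.38 for all probe sets that varied. Those of ATCSLC08 and CSLC12, 0.33 and 0.26, were below it. CSLC5 had 8.35, 8.47 and 8.55 in Columbia and 8.19 and 8.72 in Landsberg erecta. CSLC6 had 6.73, 6.78 and 6.89 in Columbia and 6.62 and 7.12 in Landsberg erecta. ATCSLC08 had 7.62, 7.49 and 7.62 in Columbia and 7.45 and 7.77 in Landsberg erecta. In these 3 genes the Columbia arrays lay between the Landsberg erecta arrays, and no difference between the ecotypes exceeded 0.07. The 95% interval for CSLC5 ran from -0.60 to 0.60.

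CSLC12 had 4.87, 4.71 and 4.87 in Columbia and 4.87 and 4.96 in Landsberg erecta. CSLC04, the CSLC gene best known for xyloglucan synthesis, did not follow this order: its Landsberg erecta arrays were nearly equal and Columbia replicate 3 was the highest array.

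The other cellulose synthase-like genes of the hemicellulose group ranged from 1.03-fold for CSLD2 to 1.59-fold for CSLA03 over the 5 arrays. CSLA03, of the family that makes mannan, had 6.65, 6.60 and 6.96 in Columbia and 6.29 and 6.60 in Landsberg erecta, with a difference of 0.29 and a 95% interval from -0.23 to 0.81. Without Landsberg erecta replicate 1 or 2 that difference was 0.13 or 0.45, and without Columbia replicate 3 it was 0.18. CSLA01 had 4.28 on 4 arrays and 4.41 on Landsberg erecta replicate 2. CSLD2, whose family acts in tip growth and cell division, stayed between 6.86 and 6.91 on all arrays.

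Among the xyloglucan remodelling genes, 4 of 8 varied. XTH32 had 10.996, 11.37 and 11.51 in Columbia and 11.11 and 11.25 in Landsberg erecta, so the Landsberg erecta arrays lay within the Columbia range, and the 95% interval of the difference ran from -0.47 to 0.69. XTH16 had 9.85, 9.59 and 9.25 in Columbia and 9.84 and 9.87 in Landsberg erecta. It was lowest on Columbia replicate 3, the array that was highest for the other 3 varying XTH genes, and the ecotypes differed by -0.29 (95% interval from -0.94 to 0.35), or by -0.13 without that array and -0.44 without Columbia replicate 1. XTH33 had 4.15, 3.63 and 5.38 in Columbia and 4.79 and 3.98 in Landsberg erecta, a 3.36-fold range with equal ecotype means of 4.39. XTH18 left the minimum of 2.15 on 1 array only, with 2.34 on Columbia replicate 3.

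Of the 18 expansin and expansin-like genes, 10 varied and 8 held a single value. The varying genes had a median difference of 0.17, with 8 means higher and 2 lower in Columbia. Over all probe sets that varied, 8628 means were higher and 7606 lower. The 10 hemicellulose synthesis genes went the other way, with 2 means higher, 8 lower and a median difference of -0.05. Of the varying expansin and expansin-like genes, 0 separated the ecotypes. The shares of all probe sets that varied were 5.36% wholly higher and 4.03% wholly lower. EXPA8, an alpha-expansin gene, had 6.27, 6.54 and 7.50 in Columbia and 6.43 and 5.52 in Landsberg erecta. Its highest value was on Columbia replicate 3 and its lowest on Landsberg erecta replicate 2, and the means were 6.77 ± 0.64 in Columbia (SD, n = 3) and 5.97 ± 0.65 in Landsberg erecta (SD, n = 2). The difference of 0.80 was the largest positive one among the members, with a 95% interval from -0.87 to 2.47, and it was 0.34 without Landsberg erecta replicate 2 or 1.25 without replicate 1.

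The other alpha-expansins were steadier. EXPA15 had 7.60, 8.26 and 8.22 in Columbia and 8.23 and 8.42 in Landsberg erecta, so that Columbia replicate 1 stood below the other 4 arrays. EXPA4 had 9.62, 9.61 and 9.71 in Columbia and 9.30 and 9.61 in Landsberg erecta, with replicate 1 of Landsberg erecta the low array. EXPA20 stayed between 4.73 and 4.92. EXPA7 and EXPA18, known from root hairs and listed as root markers, were at or near the minimum: EXPA18 at 2.15 on all arrays and EXPA7 at 2.15 on 4 arrays and 2.22 on Landsberg erecta replicate 1.

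Beta-expansins gave 2 varying genes of 4, both highest on Columbia replicate 2. EXPB1 had 7.81, 8.53 and 7.77 in Columbia and 7.90 and 7.81 in Landsberg erecta. EXPB3 had 9.16, 9.55 and 9.51 in Columbia and 9.32 and 9.29 in Landsberg erecta. For EXPB1 a single Columbia array stood above the other 4, whereas for EXPB3 it was Columbia replicates 2 and 3 that stood above Landsberg erecta and replicate 1 that stood below.

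Expansin-like proteins resemble expansins, but no loosening activity is established for them. EXLA1 had 6.16, 5.90 and 7.46 in Columbia and 6.35 and 6.13 in Landsberg erecta, so that Columbia replicate 3 alone stood apart. The difference of 0.26 turned to -0.21 without that array. EXLA2 had 9.11, 9.11 and 9.37 in Columbia and 9.15 and 8.82 in Landsberg erecta. EXLB1 had 4.89, 5.33 and 4.89 in Columbia and 4.86 and 4.89 in Landsberg erecta. EXLA1 and EXLA3 are direct neighbours in the RefSeq annotation of assembly TAIR10.1, with 0 protein-coding genes between them, yet EXLA3 held 2.17 on every array.

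Further genes of wall assembly and of lignin, from lists outside the members, were read beside them. The assembly and breakdown list had 26 named genes, 23 of them of the TBL (trichome birefringence-like) family, many of which add acetyl groups to wall polysaccharides. In the limma fit 0 of the 26 were called, and all had a limma adjusted p of 1. Of the 18 that varied, 11 were highest on Columbia replicate 3, against 21.2% of all probe sets that varied. On Columbia replicate 1, 6 were lowest, against 14%. Of the 16 TBL genes that varied, 4 had a range of at least 2-fold, against 7.27%. TBL38 had 6.89, 7.72 and 8.56 in Columbia and 8.37 and 7.97 in Landsberg erecta. TBL36 had 7.60, 8.03 and 8.61 in Columbia and 8.39 and 8.01 in Landsberg erecta. TBL37 had 5.79, 6.40 and 7.004 in Columbia and 6.40 and 5.96 in Landsberg erecta. These 3 were singled out after their values were seen. Their Columbia arrays were in the same order as for GUT2, with both Landsberg erecta arrays between the extremes. TBL28 also had this pattern, within a 1.61-fold range.

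TBL39, which had the smallest unadjusted p of that list, had 8.58, 8.40 and 8.26 in Columbia and 8.69 and 8.54 in Landsberg erecta, so Columbia replicate 3 was its lowest array. TBL16 had 6.20, 6.20 and 6.39 in Columbia and 6.14 and 6.20 in Landsberg erecta. COB, which encodes the COBRA protein that guides cellulose orientation, had 10.997, 11.03 and 11.54 in Columbia and 10.84 and 11.02 in Landsberg erecta. The fourth gene with a 2-fold range, TBL40 (AT2G31110), had its highest value on Columbia replicate 3 and its lowest on Landsberg erecta replicate 2. ADPG1, a polygalacturonase gene, was at 2.15 on all arrays. Of 7 named genes on the lignin list, 3 varied and 0 were called. HCT, an enzyme of the lignin precursor pathway, was also chosen after its values were seen. It had 9.73, 10.12 and 10.26 in Columbia and 9.88 and 10.05 in Landsberg erecta. The Columbia arrays had the order of GUT2 on a smaller scale, but replicate 2 lay above both Landsberg erecta arrays and not below them. The peroxidase gene AT5G64120 had 2.95, 3.07 and 2.95 in Columbia, against 2.95 and 2.95 in Landsberg erecta. Another peroxidase gene, AT5G66390, had 4.37, 4.29 and 4.91 in Columbia, against 4.37 and 4.37 in Landsberg erecta.

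**Figure D4:**
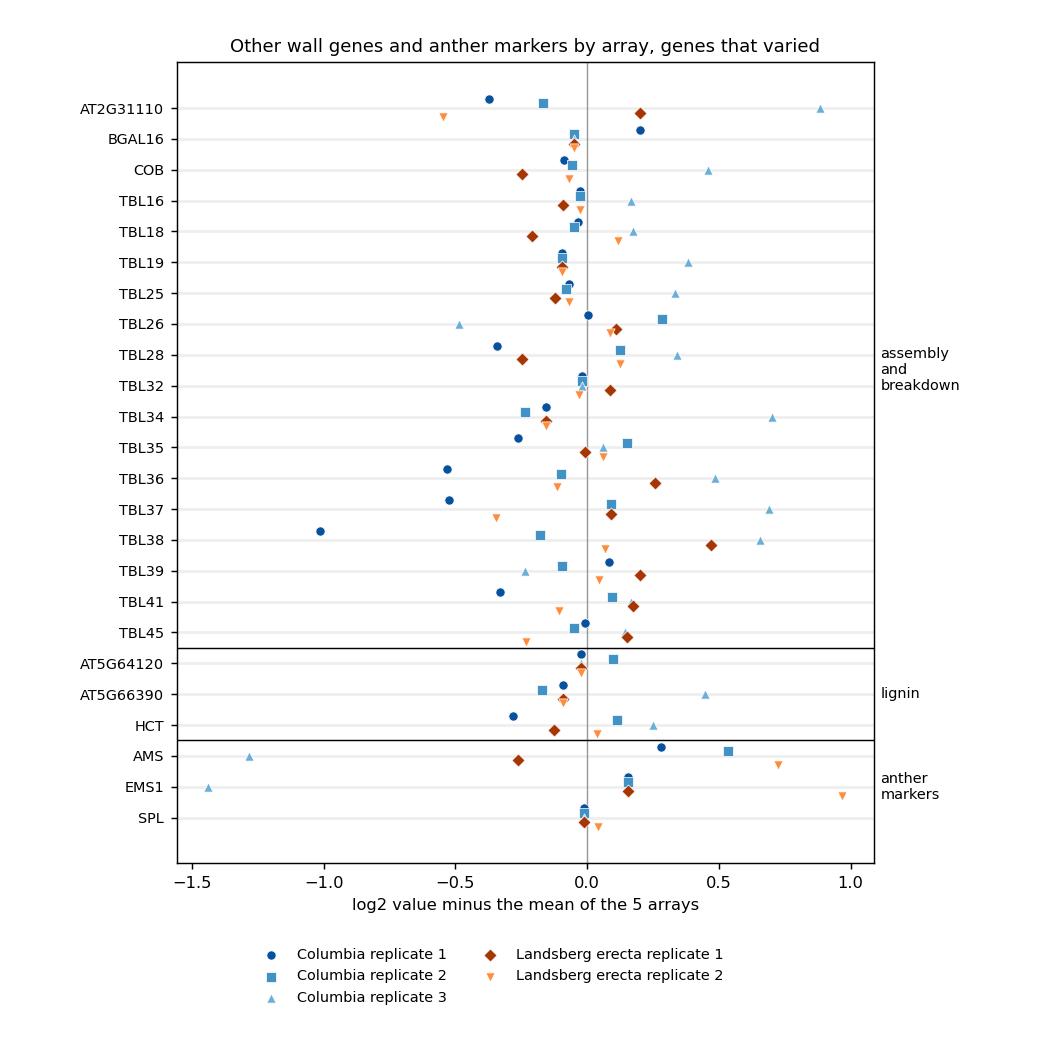
Log2 value minus the mean of the 5 arrays (x axis) for the varying genes of the wall assembly and breakdown list, the lignin list and the anther marker list, 1 gene per row and 1 symbol per array. TBL28, TBL36, TBL37, TBL38 and HCT are lowest on Columbia replicate 1 and highest on Columbia replicate 3, and AMS and EMS1 are lowest on Columbia replicate 3.

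The anther and pollen markers were listed with earlier results of these data known. Of 10 listed anther and pollen markers 3 were named by a probe set. Their summed level, on the linear scale, was 129, 146 and 47.9 in Columbia and 100.03 and 185 in Landsberg erecta. AMS, a regulator of the anther tapetum, had 6.51, 6.76 and 4.95 in Columbia and 5.97 and 6.96 in Landsberg erecta. EMS1, a receptor kinase gene of tapetum formation, had 4.93, 4.93 and 3.34 in Columbia and 4.93 and 5.74 in Landsberg erecta. SPL, the third marker, stayed between 2.80 and 2.86. AMS and EMS1 were lowest on Columbia replicate 3, and the summed level also differed between the Landsberg erecta arrays. On Columbia replicate 1 both genes lay within the range of the other arrays. The part of tissue makeup in the wall gene values was not tested.

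The log2 ratio of the 3 prime to the 5 prime GAPDH probe sets was 0.89, 0.92 and 0.98 in Columbia and 1.25 and 1.22 in Landsberg erecta, and the 25S ribosomal RNA control had 7.77, 8.11 and 8.17 in Columbia and 7.16 and 6.53 in Landsberg erecta. Of 10 listed markers of green tissue 2 were named by a probe set, RCA and LHCB4.1. Their summed level on the linear scale was 39125, 39616 and 38395 in Columbia and 35013 and 33867 in Landsberg erecta, without overlap. The ratio for ubiquitin was 0.88, 0.73 and 0.94 in Columbia and 0.90 and 0.85 in Landsberg erecta, with overlap. The GAPDH ratio, the 25S control and the green tissue markers moved with the ecotype, and their part in the ecotype differences above was not tested. Array medians lay between 5.44 and 5.46 in Columbia and between 5.44 and 5.50 in Landsberg erecta.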

How the data were processed

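Biotin-labelled cRNA made from 2 ug of total RNA was hybridised to Affymetrix arrays, per the labels' protocols. The authors deposited a single table of log2 values for 22810 probe sets. Its range shows the log2 scale, while the background correction, normalization and summary method are not given in the sources used here. Members were found by symbol in the platform annotation, and all 42 matched RefSeq (assembly TAIR10.1) by gene identifier. Each had 1 probe set. Genes were named by a rule: every member of a polymer group of up to 6, and in larger groups up to 4 with the highest mean, 3 per direction with the largest difference without overlap and 4 with the largest range, plus up to 2 per pathway list with the smallest p. The remaining members are given by value so that all are accounted for. Members and lists were chosen with earlier results of these data known. TBL40 (AT2G31110) was reached through a RefSeq synonym, and the epidermis symbol FDH was dropped because it matched formate dehydrogenase.

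The ecotype contrast, Columbia less Landsberg erecta, was estimated by limma (version 3.58.1, R 4.3.3), using lmFit and eBayes with no covariate or filter, over the 22746 probe sets that are not controls, with Benjamini-Hochberg adjustment and a threshold of 0.05. The fit was tested on simulated data. Values within 0.001 were treated as equal. Alternatives were quantile normalization, equal array medians, 2 filters on low values, other eBayes settings, array weights, other choices of probe sets, each array left out and the replicate number as a block. Promoter motifs were planned and were not run, as no promoter sequence was used here. Depth does not apply to arrays: their number, 5, limits the precision. Plots used matplotlib (3.10.9) under Python (3.11.15).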

Additional observations from a re-analysis of the deposited data

How the results depend on the processing

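The counts of members called, 0 higher and 0 lower in Columbia, held under every alternative with all 5 arrays, as did 0 called genes of the pathway lists. With single arrays left out, 0 members were called higher, and 0 to 1 members and 0 to 1 pathway genes were called lower or in either direction. Over all probe sets, 1014 were called without Landsberg erecta replicate 1, 935 without replicate 2 and 0 without any Columbia array. The calls of members and pathway genes came where 1 Landsberg erecta array remained and the Columbia values were identical within 0.001. They were CSLA01 without replicate 1 (difference -0.12), EXPA7 without replicate 2 (-0.07) and TBL32 in both fits. The difference of TBL32 changed sign between these fits, from 0.01 without replicate 1 to -0.11 without replicate 2. The members not overlapping numbered 2 higher and 0 lower. With equal array medians 4 were higher and with quantile normalization 3. The share over all probe sets was not taken under these normalizations, so the rise is not read as a trait of the members. With single arrays left out 3 to 10 were higher and 1 to 7 lower. Over all probe sets that varied, those omissions gave 9.67% to 23% higher and 7.86% to 23.3% lower. Leaving out single arrays moved the median difference of 0.03 to between -0.02 and 0.12, equal array medians to 0.05 and the filter at the 50th percentile to 0.13. Of the 7 members with a 2-fold range, 4 were left without the probe sets below the 50th percentile of the mean. That alternative was chosen after seeing the data, and its filter leaves 20 varying members. The share over all probe sets was not taken for it. With all arrays, 231 of 238 differences of named genes kept their sign. The others were PMEPCRF at -0.00673 (quantile normalization), -0.0762 (array weights) and -0.32 (replicate block), CSLC5 at 0.0215 (equal array medians), XTH33 at -0.15 (array weights) and -0.50 (replicate block), and EXLA1 at -0.21 (replicate block); each main difference was small beside the spread of its arrays, and the cause was not tested. With single arrays left out, 7 genes changed sign within these ranges: CSLC5 from -0.27 to 0.27, ATPMEPCRD from -1.51 to 0.0154, ATCSLC08 from -0.20 to 0.13, PMEPCRF from -0.32 to 0.42, EXPB1 from -0.0617 to 0.32, EXLA1 from -0.21 to 0.57 and XTH33 from -0.50 to 0.41. The labels do not say that replicate numbers pair arrays. Across probe sets, deviations from the ecotype mean had a correlation of -0.02 between the arrays numbered 1 and 0.08 between those numbered 2, and the replicate block, which leaves Columbia replicate 3 without a partner and so sets it aside, changed no call.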
